A study of Mus musculus with 32 samples.

Results

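Antigen presentation to CD4+ T cells needs a peptide on MHC class II, made of an alpha and a beta chain and guarded on its way to the endosome by the invariant chain, and a second signal from costimulatory ligands. This account follows 10 mouse genes of that machinery through every group of the series. H2-Aa and H2-Ab1 encode the chains of the I-A molecule, H2-Eb1 the beta chain of I-E, Cd74 the invariant chain, and Ciita the coactivator that switches class II transcription on. Cd80 and Cd86 are the ligands of CD28 and CTLA-4, Cd40 is the receptor that answers to CD40 ligand on T cells, Cd274 encodes the inhibitory ligand PD-L1, and Cd83 a surface protein of mature antigen presenting cells that keeps class II and CD86 on the membrane. Macrophages carry low to moderate class II at rest. Interferon gamma is the classical inducer of Ciita, while bacterial products and type I interferon are known mainly for acting on the costimulatory ligands. The members were taken as the probes whose gene name in the scanner files was one of the 10 symbols. This gave 12 probes out of 33140 that carried a symbol, and 10 genes out of 16065 tested. Every one of the 12 probes passed the filter on dim signal.

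The cells were bone marrow-derived macrophages (BMDMs) grown with M-CSF from C57BL/6 wild-type (WT) mice or from mice on that background lacking Ifnar1, a chain of the type I interferon receptor (Ifnar1-/-). They were collected at 6 h on 32 one-colour Agilent arrays, as 16 groups of 2 arrays. In each genotype the groups were untreated cells, LPS, which activates TLR4, IFNβ, the caspase inhibitor zVAD alone, LPS+zVAD, IFNβ+zVAD, and either mixture with Nec-1, an inhibitor of RipK1. The labels give LPS as 100 ng/mL and IFNβ as 1000 U/mL, whereas the legends of the study state other doses. No group received Nec-1 alone. LPS or IFNβ together with zVAD starts necroptosis, a lytic death run by RipK1 and RipK3. The study asked how that death programme and the interferon receptor shape the inflammatory response. It reports little or no detectable death at 6 h, and strong resistance to necroptosis in Ifnar1-/- macrophages. The sources used here do not say that the 2 arrays of a group came from separate cultures or mice, so the p-values measure the spread between arrays, which may be technical.

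Each slide held 1 array of each of the 8 treatments of 1 genotype. A difference in level between genotypes therefore cannot be told apart from a slide difference, whereas both sides of a change with treatment lie on the same slides. The main fit held no slide term, so its p-values include the spread between slides. A fit with the slide as a replicate block is given where its calls differed. Between 44.6% and 78.1% of the probes were well above background on an array, and no probe was saturated. The 2 arrays labelled Ifnar1-/- LPS+zVAD+Nec-1 stood apart: they correlated with each other at 0.947 over the genes tested, against 0.973 for the next lowest pair. Replicate 2 of that group was closest to replicate 2 of Ifnar1-/- IFNβ+zVAD+Nec-1 (0.993) and replicate 1 was closest to replicate 1 of Ifnar1-/- LPS (0.981). Values with and without these arrays are given where a call changed. The Ifnar1 probe read 14.19 and 14.22 in untreated WT and 11.87 and 11.89 in untreated Ifnar1-/- cells on the log2 scale, but WT LPS+zVAD (11.18 and 12.38) and WT IFNβ+zVAD+Nec-1 (9.02 and 12.73) overlapped the Ifnar1-/- range. Whether this probe lies in the deleted part is not stated. All 9 macrophage markers measured were well above background on at least 50% of the arrays, with summed levels of 830459 to 1115500 in WT and 841157 to 1134260 in Ifnar1-/- arrays. The sums hide Fcgr1, which was 12.30 to 16.73 in WT and 6.81 to 11.83 in Ifnar1-/-. The ranges of the other macrophage markers overlapped between the genotypes. Of 9 dendritic cell markers 6 were above background on at least 50% of the arrays, with sums of 63285.6 to 101274 in WT and 92927.6 to 182175 in Ifnar1-/- cells. Itgax, the CD11c gene of that list, was 12.72 to 13.69 in WT and 15.66 to 16.81 in Ifnar1-/-, and Xcr1 was above background on 2 arrays only. The ranges of every other gene of the list overlapped between the genotypes. Among these, Siglech was 15.63 to 16.42 in WT and 15.14 to 16.02 in Ifnar1-/-, and Clec9a 3.04 to 10.60 and 2.19 to 4.27. The 7 neutrophil markers summed to 11306.8 to 47583.1 in WT and 49952.1 to 112296 in Ifnar1-/- arrays. Within that list S100a9 was 10.01 to 14.54 in WT and 14.90 to 15.98 in Ifnar1-/-, and Ngp 6.30 to 9.66 and 11.05 to 12.48. Ly6g went the other way, at 6.81 to 12.31 in WT and 2.75 to 5.14 in Ifnar1-/-. The ranges of Elane, Mpo, Camp and S100a8 overlapped. The B cell list, another class II-expressing type, had 6 of 7 genes above background at sums of 544.2 to 1438 in WT and 846.6 to 1622 in Ifnar1-/-. The T cell list had 5 of 7, at sums of 5300.5 to 27005.8 in WT and 4173.2 to 9377.6 in Ifnar1-/-. The NK cell list had 3 of 4, at 4107.2 to 8177.6 and 7764.2 to 15027.7. Its gene Klrb1c was 2.80 to 4.51 in WT and 4.64 to 6.78 in Ifnar1-/-. The part of these cell types in the results below was not tested.

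Class II promoters share a module in which the X box is bound by RFX and by CREB family proteins and the Y box, a reversed CCAAT, by NF-Y, with CIITA docking on the assembled factors. The following 120 bases before the start site are shown for the 4 members whose promoter was available. These were 2 class II genes whose group means spanned little here and 2 ligand genes whose group means spanned more. The sequences come from a RefSeq promoter set on GRCm38.p6, which held 4 of the 10 members, and capitals mark every match to 5 motifs searched on both strands: ATTGG (Y box core), AGCAACNGA (X box core), TGACGTCA (cyclic AMP response element), GAAANNGAA (a repeat as in interferon response elements) and TTCNNNGAA (a GAS element). The sequence of H2-Aa is the minus strand at chr17:34287824-34287943, H2-Eb1 the plus strand at chr17:34305747-34305866, Cd274 the plus strand at chr19:29367318-29367437 and Cd80 the plus strand at chr16:38458813-38458932.
H2-Aa: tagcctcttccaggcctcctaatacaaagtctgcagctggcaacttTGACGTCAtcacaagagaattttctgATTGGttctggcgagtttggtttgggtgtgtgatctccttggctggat
H2-Eb1: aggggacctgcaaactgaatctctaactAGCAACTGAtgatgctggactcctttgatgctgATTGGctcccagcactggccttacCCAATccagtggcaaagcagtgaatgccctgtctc
Cd274: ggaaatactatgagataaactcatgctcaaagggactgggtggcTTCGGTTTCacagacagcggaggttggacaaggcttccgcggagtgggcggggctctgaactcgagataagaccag
Cd80: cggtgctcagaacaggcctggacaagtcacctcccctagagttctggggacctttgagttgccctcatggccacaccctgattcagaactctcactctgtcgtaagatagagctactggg

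H2-Aa held the cyclic AMP response element 74 bases and the Y box core 48 bases before its start. H2-Eb1 held an X box core at 92 bases and the Y box core at 59 bases, and a second Y box core on the other strand at 35 bases. Cd274 held the interferon-type repeat on the other strand, 76 bases before its start, and Cd80 held no match in the window. Among 32851 mouse promoters, the 250 bases before the start held the Y box core in 33.8%, the X box core in 1.07%, the cyclic AMP response element in 1.55%, the interferon-type repeat in 7.13% and the GAS element in 7.02%. A match is a description of the letters and not a measured site.

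The costimulatory genes moved by several log2 units while the class II genes varied little. Over the 16 group means, Cd40 spanned 8.33 log2 units, Cd86 6.70, Cd274 5.67, Cd83 5.00, Ciita 3.95 and Cd80 3.28. The class II chains and the invariant chain spanned much less, at 1.29 for H2-Aa, 0.89 for H2-Ab1, 0.82 for H2-Eb1 and 0.70 for Cd74. In the limma test over all genes, none of the 4 genes H2-Aa, H2-Ab1, H2-Eb1 and Cd74 passed an adjusted p of 0.05 in any of 33 comparisons, although some did under other settings given below. As the RNA came from whole cultures, fewer cells of a type and less RNA per cell cannot be told apart in any of these values.

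**Figure D1:**
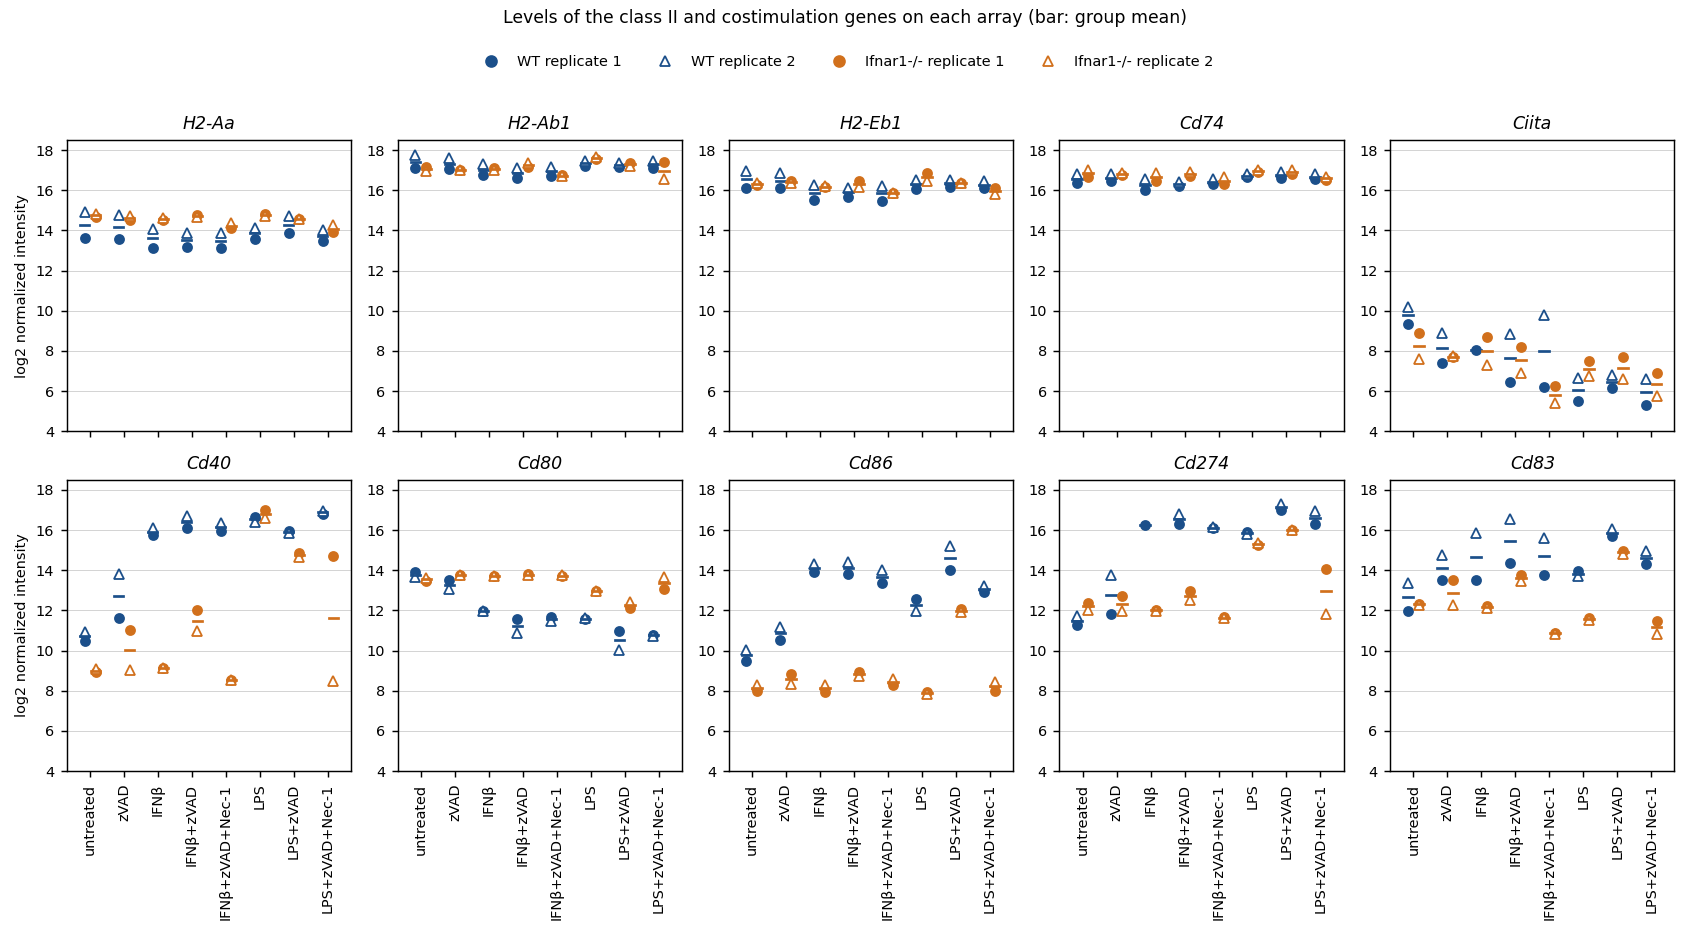
Log2 normalised intensity (y axis) of the 10 genes by treatment (x axis), with circles for replicate 1, triangles for replicate 2, bars for group means, blue for WT and orange for Ifnar1-/- cells. The 4 class II genes lie in narrow bands in all groups, whereas Cd40, Cd86 and Cd274 are high and Cd80 low in WT cells given LPS or IFNβ.

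Against untreated WT cells, LPS changed 5 of the 10 members (41.2% of all genes tested were called), with Cd40, Cd86 and Cd274 higher and Ciita and Cd80 lower. IFNβ changed 5 (35.3% of all genes), with Cd40, Cd86, Cd274 and Cd83 higher and Cd80 lower. LPS+zVAD changed 6 (50.9% of all genes), Cd83 joining the LPS set. IFNβ+zVAD changed 5 (37.5% of all genes). With Nec-1 added, the LPS mixture changed 6 (40.9% of all genes) and the IFNβ mixture changed 5 (31.7% of all genes), and zVAD alone changed none (0.00622% of all genes), with 2 members at an unadjusted p under 0.05. The median change of the 10 members was 0.03 with LPS, against -0.08 over all genes tested.

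Of the Ifnar1-/- comparisons, LPS changed 2 members (24.8% of all genes), Cd40 and Cd274, and LPS+zVAD changed 5 (28.1% of all genes), raising Cd40, Cd86, Cd274 and Cd83 and lowering Cd80. IFNβ changed none (0% of all genes, and no member at an unadjusted p under 0.05), and zVAD alone changed none (0% of all genes, likewise with no member at an unadjusted p under 0.05). IFNβ+zVAD changed none (0.00622% of all genes), LPS+zVAD+Nec-1 none (1.31%) and IFNβ+zVAD+Nec-1 none (1.76%), each with 1 member at an unadjusted p under 0.05. The share of members called was above the share of all genes called in some comparisons, close to it with LPS in WT cells, and below it in others, such as LPS in Ifnar1-/- cells.

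**Figure D2:**
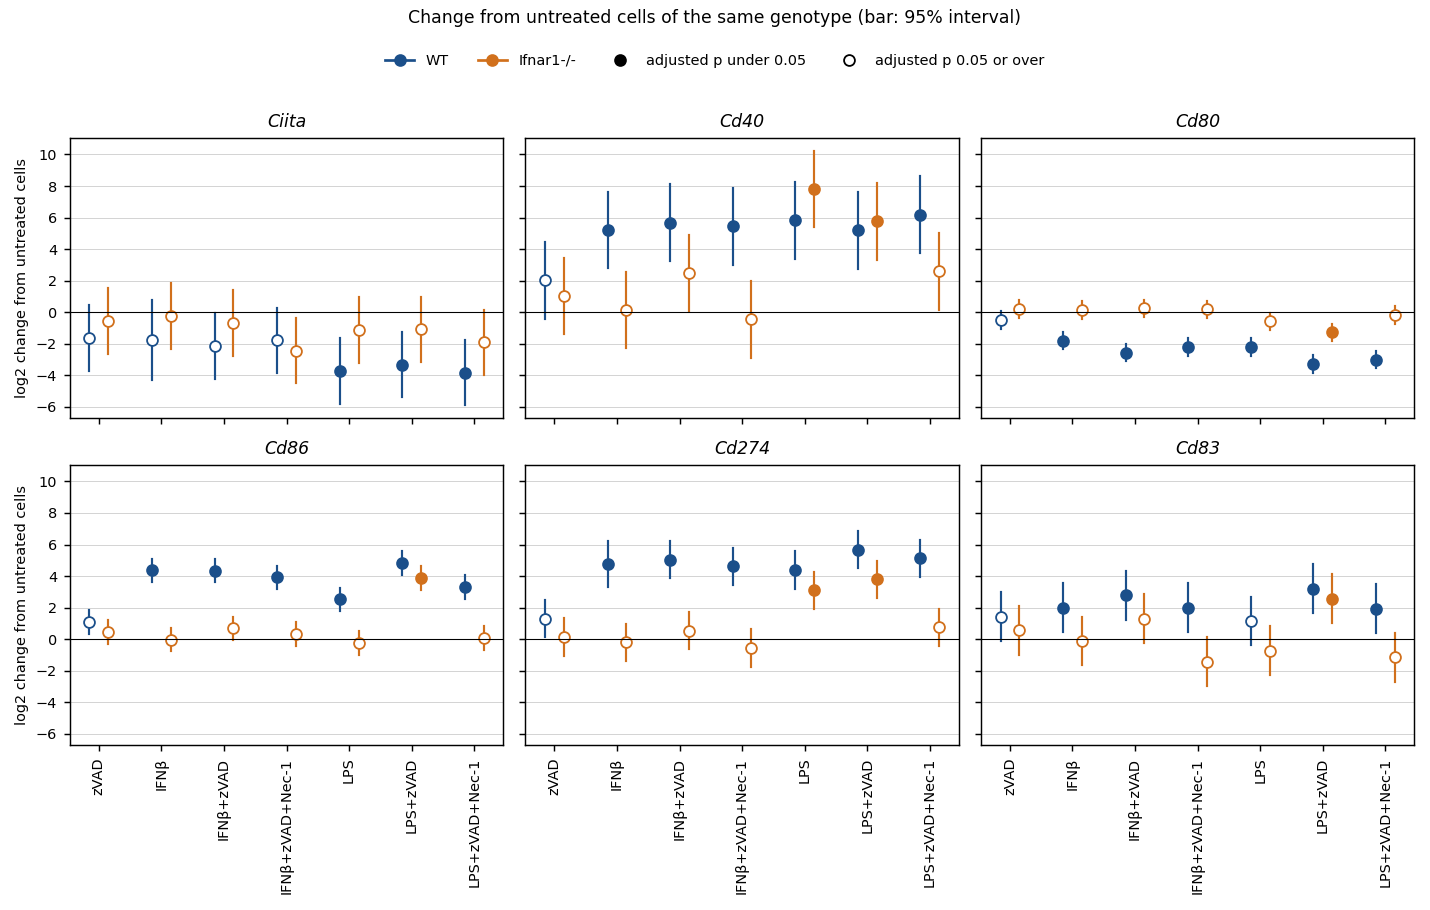
Log2 change from untreated cells of the same genotype (y axis) of Ciita and the 5 costimulatory genes for the 7 treatments (x axis), with 95% confidence intervals, WT in blue, Ifnar1-/- in orange, and filled points at an adjusted p under 0.05. Filled orange points occur with LPS and LPS+zVAD only, while WT points are filled for Cd40, Cd80, Cd86 and Cd274 with every treatment except zVAD alone.

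H2-Aa, the I-A alpha chain (probe at chr17:34421285-34421344 on mm9), read 13.64 and 14.93 in untreated WT cells, 13.59 and 14.13 with LPS, and 13.15 and 14.07 with IFNβ. The arrays of the 3 groups overlapped, and replicate 2 was the higher array of each WT group. The change was -0.42 with LPS (95% confidence interval -1.33 to 0.49) and -0.67 with IFNβ (-1.58 to 0.24). Without the receptor H2-Aa read 14.69 and 14.84 untreated, 14.83 and 14.74 with LPS, and 14.52 and 14.61 with IFNβ, so its arrays lay close together. The change there was 0.02 with LPS (-0.89 to 0.93) and -0.20 with IFNβ (-1.11 to 0.71).

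H2-Ab1, the I-A beta chain (chr17:34406296-34406355), read 17.10 and 17.75 in untreated WT cells and 17.21 and 17.47 with LPS, among the brightest values of the member set. A second probe, which overlaps the first, spanned 0.52 over the WT group means against 0.56 for the first. H2-Eb1 (chr17:34453075-34453134), whose partner alpha chain is not made in C57BL/6 mice, read 16.13 and 16.95 untreated and 15.50 and 16.27 with IFNβ. Cd74, the invariant chain, read 16.38 and 16.79 untreated and 15.99 and 16.55 with IFNβ. For each of the 3 genes the arrays of the groups overlapped. With IFNβ the WT changes were -0.40 for H2-Ab1 (-0.97 to 0.18), -0.66 for H2-Eb1 (-1.33 to 0.02) and -0.31 for Cd74 (-0.77 to 0.14).

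Replicate 2 was the brighter slide for H2-Aa, H2-Ab1, H2-Eb1 and Cd74 in untreated WT cells, and the fit with the slide as a replicate block gave other calls. With the block, H2-Aa fell in WT cells by 0.42 with LPS (adjusted p = 0.0421), by 0.67 with IFNβ (adjusted p = 0.00299), by 0.74 with IFNβ+zVAD (adjusted p = 0.00128), by 0.55 with LPS+zVAD+Nec-1 (adjusted p = 0.00971) and by 0.79 with IFNβ+zVAD+Nec-1 (adjusted p = 0.000985). H2-Eb1 fell with the block in the 3 groups that held IFNβ, by 0.66 with IFNβ (adjusted p = 0.0019), 0.65 with IFNβ+zVAD (adjusted p = 0.00191) and 0.70 with IFNβ+zVAD+Nec-1 (adjusted p = 0.00129). Cd74 fell with the block by 0.31 with IFNβ (adjusted p = 0.0275) and by 0.28 with IFNβ+zVAD (adjusted p = 0.0468). H2-Ab1 fell with the block by 0.56 with IFNβ+zVAD (adjusted p = 0.0139) and by 0.47 with IFNβ+zVAD+Nec-1 (adjusted p = 0.0397). The falls depended on the scaling. When every array was instead shifted to its 75th percentile, the IFNβ change was -0.23 for H2-Aa, -0.17 for H2-Eb1, 0.16 for H2-Ab1 and 0.17 for Cd74, none of them called. After that shift LPS+zVAD in WT cells gave called rises of 1.1 for Cd74 (adjusted p = 0.0112) and 0.74 for H2-Ab1 (adjusted p = 0.0445), against 0.17 and -0.17 with quantile normalization. Without WT untreated replicate 1, and with no block, H2-Aa fell by 1.39 with IFNβ+zVAD (adjusted p = 0.0375) and by 1.43 with IFNβ+zVAD+Nec-1 (adjusted p = 0.0393), H2-Eb1 by 1.07 with IFNβ (adjusted p = 0.0404) and H2-Ab1 by 0.88 with IFNβ+zVAD (adjusted p = 0.0483). For Ifnar1-/- cells the block gave H2-Ab1 a rise of 0.55 with LPS (adjusted p = 0.0209) and H2-Aa a fall of 0.67 with LPS+zVAD+Nec-1 (adjusted p = 0.0256). The block raised the count of members called in WT cells to 7 with LPS (53.9% of all genes), to 7 with LPS+zVAD+Nec-1 (54.1% of all genes), to 8 with IFNβ (49.2% of all genes), to 10 with IFNβ+zVAD (51.1% of all genes) and to 9 with IFNβ+zVAD+Nec-1 (46% of all genes).

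**Figure D3:**
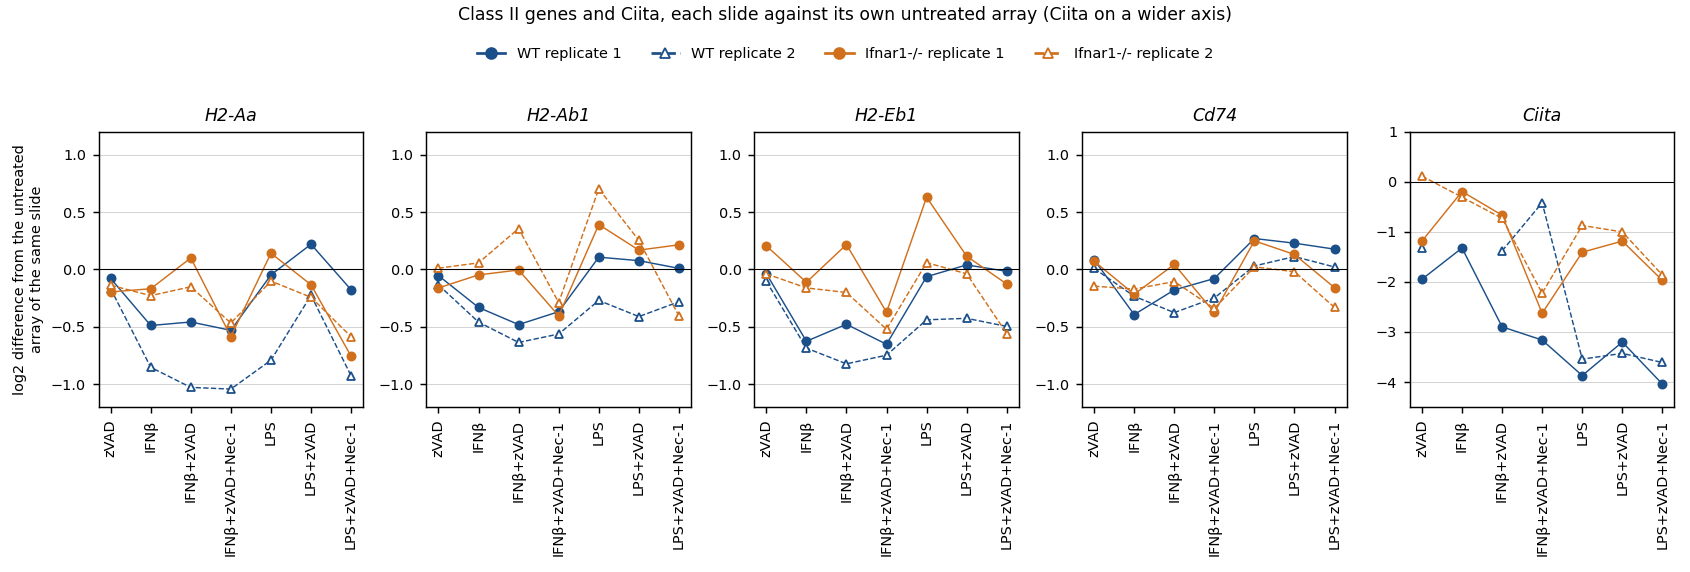
Log2 difference from the untreated array of the same slide (y axis) for H2-Aa, H2-Ab1, H2-Eb1, Cd74 and, on a wider axis, Ciita by treatment (x axis), with a line for each slide. Both WT slides lie below 0 for the 4 class II genes in every group with IFNβ, the lowest value being -1.04 for H2-Aa, and Ciita lies far lower with LPS in WT cells.

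Ciita, the class II coactivator (chr16:10526568-10526627), was lower with every LPS mixture in WT cells. It read 9.36 and 10.21 untreated, 5.49 and 6.67 with LPS, 6.16 and 6.78 with LPS+zVAD, and 5.32 and 6.60 with LPS+zVAD+Nec-1. All arrays with LPS lay below both untreated arrays. The fall was 3.71 log2 units with LPS, or 13-fold (SE 0.99, adjusted p = 0.00573), 3.31 with LPS+zVAD (adjusted p = 0.00917) and 3.82 with LPS+zVAD+Nec-1 (adjusted p = 0.00474). These calls rested on few arrays: the LPS call was lost without WT untreated replicate 2 (adjusted p = 0.0543) or WT LPS replicate 1 (adjusted p = 0.0659), the LPS+zVAD call without WT untreated replicate 2 (adjusted p = 0.0724) or its own replicate 1 (adjusted p = 0.0593), and the LPS+zVAD+Nec-1 call without its own replicate 1 (adjusted p = 0.0585).

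With IFNβ only 1 WT array measured Ciita, at 8.03, since the spot of the other was an outlier. IFNβ+zVAD read 6.46 and 8.83, and IFNβ+zVAD+Nec-1 read 6.20 and 9.79, the widest spread of any Ciita group. The change was -2.14 with IFNβ+zVAD (adjusted p = 0.101, and 0.00242 with the slide as a block) and -1.79 with IFNβ+zVAD+Nec-1 (adjusted p = 0.188, and 0.00931 with the block). Ifnar1-/- cells had Ciita at 8.89 and 7.62 untreated, 7.48 and 6.75 with LPS and 8.69 and 7.32 with IFNβ, so the IFNβ arrays overlapped the untreated ones and both LPS arrays lay below them. Its LPS change there was -1.14 (95% confidence interval -3.22 to 0.94). The change in Ifnar1-/- minus that in WT was 2.57 with LPS (adjusted p = 0.343, and 0.0236 with the block) and 2.22 with LPS+zVAD (adjusted p = 0.328, and 0.0288 with the block). With the block Ciita also fell in Ifnar1-/- cells with LPS+zVAD+Nec-1 (-1.92, adjusted p = 0.0374, 1 of 2 members called beside 6.04% of all genes) and IFNβ+zVAD+Nec-1 (-2.43, adjusted p = 0.0106, the 1 member called beside 5.09% of all genes), where 1 of 2 arrays of the latter was above background. Leaving out replicate 2 of the WT group gave Ciita a called change of -3.32 with IFNβ+zVAD (adjusted p = 0.0374) and of -3.59 with IFNβ+zVAD+Nec-1 (adjusted p = 0.0122).

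Cd40 (chr2:164897085-164897144) rose the most of the members with LPS. In WT cells it read 10.49 and 10.92 untreated, 16.67 and 16.38 with LPS and 15.76 and 16.08 with IFNβ. All arrays of both stimuli lay far above the untreated arrays. The rise was 5.82 with LPS, or 56.5-fold (SE 1.16, adjusted p = 0.000515), and 5.22 with IFNβ, or 37.2-fold (adjusted p = 0.00166). In the 4 mixtures WT arrays stayed between 15.84 and 16.96, and zVAD alone read 11.64 and 13.81 (change 2.02, adjusted p = 0.983).

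Ifnar1-/- cells had Cd40 at 8.94 and 9.07 untreated and 16.98 and 16.62 with LPS, a rise of 7.80 or 223-fold (adjusted p = 0.000142). IFNβ left it at 9.15 and 9.11, a change of 0.13 (95% confidence interval -2.29 to 2.55). LPS+zVAD read 14.83 and 14.67, a rise of 5.75 (adjusted p = 0.00122) that lay below both LPS arrays, with a difference from LPS of -2.05 (adjusted p = 0.332, and 0.0237 when both arrays of the unlike pair were dropped, a setting chosen after the data were seen). The LPS+zVAD+Nec-1 arrays disagreed, at 14.70 and 8.49. That change was 2.60 with both arrays (adjusted p = 0.338) and 5.70 without replicate 2 (adjusted p = 1.86e-05). IFNβ+zVAD read 12 and 10.99, and IFNβ+zVAD+Nec-1 read 8.56 and 8.55.

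Cd86 (chr16:36603961-36604020) separated the stimuli. In WT cells it read 9.50 and 10.02 untreated, 12.59 and 11.97 with LPS, 13.92 and 14.33 with IFNβ and 13.99 and 15.20 with LPS+zVAD. The IFNβ arrays lay above the LPS arrays, and those of LPS+zVAD overlapped the IFNβ arrays and reached higher. The rise was 2.52 with LPS, or 5.73-fold (SE 0.36, adjusted p = 2.03e-05), 4.37 with IFNβ, or 20.7-fold (adjusted p = 3.55e-08), and 4.84 with LPS+zVAD, or 28.6-fold (adjusted p = 6.7e-09). LPS minus IFNβ was -1.85 (adjusted p = 0.00105), the 1 member called in that comparison (20.3% of all genes). With the slide as a block 3 were called (33.8% of all genes), the others being Cd74 (0.46, adjusted p = 0.00405) and Ciita (-2.77, adjusted p = 0.00338, with 1 IFNβ array, assumed to vary as the other groups do). Fitted on the arrays compared alone, the Cd86 call was lost (adjusted p = 0.0601).

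Cd86 in Ifnar1-/- cells read 7.97 and 8.29 untreated and 7.93 and 7.86 with LPS, so LPS gave no higher array. The change was -0.24 (95% confidence interval -0.98 to 0.51). LPS+zVAD read 12.05 and 11.94, a rise of 3.86 or 14.6-fold (adjusted p = 1.6e-06), while LPS+zVAD+Nec-1 read 7.98 and 8.46. IFNβ read 7.95 and 8.28, and IFNβ+zVAD 8.91 and 8.72, a change of 0.69 (-0.06 to 1.43). In untreated cells Cd86 was lower in Ifnar1-/- than in WT by 1.63 (adjusted p = 0.00661), a call lost without WT untreated replicate 2 (adjusted p = 0.107) or Ifnar1-/- untreated replicate 1 (adjusted p = 0.0792).

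Cd80, the other ligand of CD28, went the opposite way. Its bright probe (chr16:38486772-38486831) read 13.90 and 13.66 in untreated WT cells, 11.57 and 11.60 with LPS, 11.97 and 11.99 with IFNβ and 10.98 and 10.04 with LPS+zVAD. Every stimulated WT array lay below both untreated arrays. The fall was 2.19 with LPS, or 4.57-fold (SE 0.26, adjusted p = 3.79e-06), 1.80 with IFNβ, or 3.48-fold (adjusted p = 3.38e-05), and 3.27 with LPS+zVAD, or 9.66-fold (adjusted p = 1.59e-08). The second Cd80 probe (chr16:38479343-38479402), which lies elsewhere in the locus, was dim at 4.36 to 8.61 and did not follow. On that probe the change was -0.05 with LPS (adjusted p = 0.967) and 1.24 with IFNβ (adjusted p = 0.226). The direction of Cd80 therefore holds for the bright probe and is not given by the dim one.

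On Ifnar1-/- arrays the bright Cd80 probe read 13.46 and 13.63 untreated, 12.98 and 12.95 with LPS, 13.69 and 13.69 with IFNβ, and 12.14 and 12.40 with LPS+zVAD. The LPS arrays lay below the untreated arrays, and those of LPS+zVAD lower. The change was -0.58 with LPS (adjusted p = 0.123, and 0.0354 with the block), 0.15 with IFNβ (95% confidence interval -0.41 to 0.70) and -1.27 with LPS+zVAD, or 2.42-fold lower (adjusted p = 0.00151). In the block fit 4 members were called with LPS in Ifnar1-/- cells (38.5% of all genes), the added ones being Cd80 and H2-Ab1.

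Cd274, the PD-L1 gene (chr19:29462363-29462422), read 11.25 and 11.72 in untreated WT cells, 15.90 and 15.83 with LPS, and 16.99 and 17.31 with LPS+zVAD. With IFNβ 1 array gave 16.24, the other spot being an outlier. All stimulated WT arrays lay above both untreated ones. The rise was 4.38 with LPS, or 20.8-fold (SE 0.56, adjusted p = 9.69e-06), 4.76 with IFNβ (SE 0.69, adjusted p = 3.67e-05, where the lone array is assumed to vary as the other groups do) and 5.67 with LPS+zVAD, or 50.8-fold (adjusted p = 2.25e-07). In Ifnar1-/- cells it read 12.37 and 12.03 untreated, 15.26 and 15.34 with LPS, 12.04 and 11.98 with IFNβ, and 15.98 and 16.02 with LPS+zVAD. LPS raised it by 3.10, or 8.57-fold (adjusted p = 0.00069), and LPS+zVAD by 3.80, or 14-fold (adjusted p = 0.000126). With LPS+zVAD+Nec-1 the unlike arrays read 14.08 and 11.85, a change of 0.76 (adjusted p = 0.685) that was 1.88 without replicate 2 (adjusted p = 0.021). The IFNβ change in Ifnar1-/- cells was -0.19 (95% confidence interval -1.37 to 0.99).

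Cd83 (chr13:43898276-43898335) read 11.98 and 13.38 in untreated WT cells, 13.96 and 13.71 with LPS, 13.50 and 15.85 with IFNβ, and 15.71 and 16.03 with LPS+zVAD. Replicate 2 was the higher array in 7 of the 8 WT groups. The rise was 3.19 with LPS+zVAD, or 9.12-fold (SE 0.74, adjusted p = 0.00132), and 2.78 with IFNβ+zVAD (adjusted p = 0.00606). Cd83 also passed with IFNβ (1.99, adjusted p = 0.0429), LPS+zVAD+Nec-1 (1.95, adjusted p = 0.0426) and IFNβ+zVAD+Nec-1 (2.01, adjusted p = 0.0454), and each of these 3 calls was lost without WT untreated replicate 1 (adjusted p = 0.31, 0.307 and 0.317, with changes of 1.30, 1.25 and 1.31). They were also lost without replicate 2 of the treated group, where the changes were 0.82 with IFNβ (adjusted p = 0.495), 1.63 with LPS and both inhibitors (adjusted p = 0.192) and 1.1 with IFNβ and both inhibitors (adjusted p = 0.381). The IFNβ+zVAD call was lost without WT untreated replicate 1 (2.08, adjusted p = 0.0882) or its own replicate 2 (1.67, adjusted p = 0.137). The LPS change was 1.16 (adjusted p = 0.237, and 0.0493 with the block).

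Cd83 in Ifnar1-/- cells read 12.32 and 12.29 untreated, 11.61 and 11.53 with LPS, 12.24 and 12.14 with IFNβ, and 14.98 and 14.78 with LPS+zVAD. The LPS arrays lay under the untreated arrays and those of LPS+zVAD above them. LPS changed it by -0.74 (95% confidence interval -2.29 to 0.82) and LPS+zVAD raised it by 2.58, or 5.96-fold (adjusted p = 0.0138), with adjusted p between 0.0512 and 0.0822 when any 1 of the 4 arrays was left out. With Nec-1 the arrays read 11.48 and 10.82 after LPS+zVAD+Nec-1, and 10.89 and 10.84 in the matching IFNβ mixture.

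Whether the interferon receptor altered a response was tested as the change in Ifnar1-/- cells minus the change in WT cells. With IFNβ 4 members differed (18.8% of all genes): Cd40 by -5.09 (adjusted p = 0.0361), Cd86 by -4.39 (adjusted p = 8.46e-06), Cd274 by -4.95 (adjusted p = 0.00078, with 1 WT IFNβ array) and Cd80 by 1.94 (adjusted p = 0.00118). The Cd40 difference lost its call when any 1 of the 8 arrays was left out (adjusted p 0.0724 to 0.0966). The block added Cd83 (-2.11, adjusted p = 0.0227), giving 5 (33.7% of all genes). With LPS 2 members differed (6.63% of all genes), Cd86 by -2.76 (adjusted p = 0.00222) and Cd80 by 1.61 (adjusted p = 0.012), whereas Cd40 differed by 1.98 (95% confidence interval -1.45 to 5.41) and Cd274 by -1.28 (-2.95 to 0.39). Cd80 lost that call without the untreated replicate 1 of WT (adjusted p = 0.057) or of Ifnar1-/- (adjusted p = 0.0604). Unless stated, Cd80 values from here on, and the 2 above, are those of the bright probe. On the dim probe the difference in the limma fit was -1.22 with IFNβ (adjusted p = 0.489) and -0.18 with LPS (adjusted p = 0.972). With zVAD alone no member differed (0% of all genes, and no member at an unadjusted p under 0.05).

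With LPS+zVAD 1 member differed (16.1% of all genes), Cd80 by 2.0 (adjusted p = 0.00124), while Cd86 differed by -0.97 (adjusted p = 0.217, but -1.57 at an adjusted p of 0.0305 without WT LPS+zVAD replicate 1) and Cd83 by -0.61 (adjusted p = 0.774). The block added Ciita and Cd274 (-1.86, adjusted p = 0.0461), giving 3 (30.7% of all genes). The dim Cd80 probe differed by -0.30 with LPS+zVAD (adjusted p = 0.896) and by 0.68 with IFNβ+zVAD (adjusted p = 0.729) in the limma fit. With IFNβ+zVAD 3 differed (19.2% of all genes): Cd80 by 2.81 (adjusted p = 4.18e-05), Cd86 by -3.66 (adjusted p = 5.88e-05) and Cd274 by -4.51 (adjusted p = 0.000714). The block added H2-Aa (0.72, adjusted p = 0.0254), H2-Ab1 (0.73, adjusted p = 0.0305) and H2-Eb1 (0.66, adjusted p = 0.0258), giving 6 (35.1% of all genes), but after a 75th percentile shift these were 0.23, 0.08 and 0.11 and not called.

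With LPS+zVAD+Nec-1 4 members differed (17.8% of all genes): Cd80 by 2.83 (adjusted p = 5.71e-05), Cd86 by -3.23 (adjusted p = 0.000243), Cd274 by -4.37 (adjusted p = 0.001) and Cd83 by -3.10 (adjusted p = 0.047). This contrast holds the 2 unlike arrays: Cd40 differed by -3.59 with both (adjusted p = 0.145) and by -6.69 without replicate 1 (adjusted p = 3.23e-05), and Cd83 lost its call without any 1 of 6 of the 8 arrays (adjusted p 0.0714 to 0.185), replicate 2 of the unlike pair among them (-2.78, adjusted p = 0.143). With IFNβ+zVAD+Nec-1 5 members differed (18.2% of all genes): Cd40 by -5.88 (adjusted p = 0.0171), Cd80 by 2.38 (adjusted p = 0.000209), Cd86 by -3.61 (adjusted p = 6.99e-05), Cd274 by -5.19 (adjusted p = 0.000204) and Cd83 by -3.45 (adjusted p = 0.0273). Cd40 lost its call without WT untreated replicate 1 (adjusted p = 0.0531), and Cd83 without any 1 of 6 of the 8 arrays (adjusted p 0.0664 to 0.128).

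**Figure D4:**
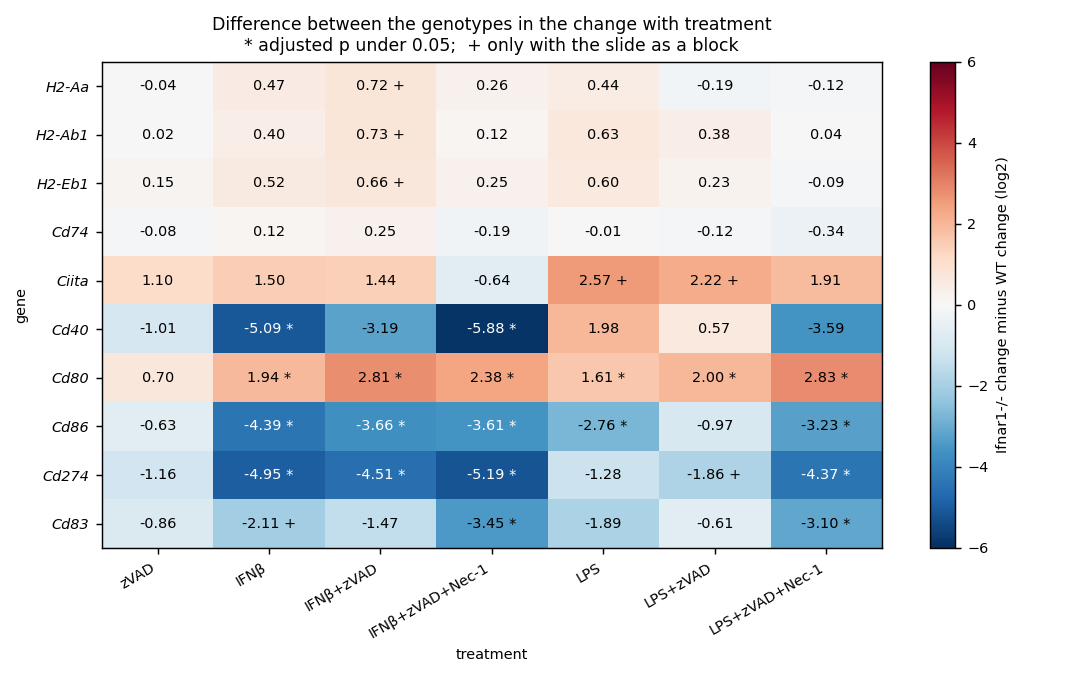
Heat map of the log2 change with treatment in Ifnar1-/- cells minus that in WT cells, for the 10 members (y axis) and 7 treatments (x axis), with an asterisk at an adjusted p under 0.05 and a plus sign where only the fit with the slide as a block passed. Cd86 and Cd274 are negative and Cd80 positive with an asterisk in every group with IFNβ, and H2-Aa, H2-Ab1, H2-Eb1 and Cd74 carry no asterisk. The Cd80 values are those of its bright probe.

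Adding the caspase inhibitor to LPS changed 3 members in WT cells (34.6% of all genes). Cd86 was higher by 2.32 (adjusted p = 6.04e-05), Cd83 by 2.03 (adjusted p = 0.0395) and Cd80 lower, with a change of -1.08 (adjusted p = 0.00337). Cd80 lost this call without WT LPS+zVAD replicate 2 (-0.61, adjusted p = 0.115), and Cd83 lost it without any 1 of the 4 arrays (adjusted p 0.0839 to 0.173). With the block Cd274 (1.29, adjusted p = 0.035) and H2-Aa (0.42, adjusted p = 0.0481) also passed, 5 in all (48.1% of all genes). In Ifnar1-/- cells it changed 2 members (8.25% of all genes), Cd86 by 4.10, or 17.2-fold (adjusted p = 9.91e-07), and Cd83 by 3.31, or 9.93-fold (adjusted p = 0.0083). The block added Cd80 (-0.69, adjusted p = 0.0273), giving 3 (19.5% of all genes). Cd83 lost its call without Ifnar1-/- LPS replicate 1 (adjusted p = 0.0639) or replicate 2 (adjusted p = 0.0633), or LPS+zVAD replicate 1 (adjusted p = 0.0879). Adding zVAD to IFNβ changed no member in WT cells (0% of all genes, with 1 member at an unadjusted p under 0.05) or in Ifnar1-/- cells (0.00622% of all genes, with none).

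Adding Nec-1 to LPS+zVAD changed 1 member in WT cells (28.4% of all genes), Cd86 by -1.52 (adjusted p = 0.00324), which fell short without WT LPS+zVAD replicate 2 (-0.92, adjusted p = 0.109). The block added H2-Aa (-0.55, adjusted p = 0.0133) and Cd83 (-1.24, adjusted p = 0.0442), giving 3 (42.2% of all genes). In Ifnar1-/- cells Nec-1 changed 4 members (18.8% of all genes): Cd86 by -3.78 (adjusted p = 4.11e-06), Cd83 by -3.73 (adjusted p = 0.00221), Cd274 by -3.04 (adjusted p = 0.00147) and Cd80 by 1.09 (adjusted p = 0.00811). Of the 2 unlike arrays in this contrast, leaving out replicate 2 gave -1.92 for Cd274 (adjusted p = 0.0291) and ended the call for Cd80 (0.79, adjusted p = 0.12), while Cd40, at -3.16 with both (adjusted p = 0.0642), was -6.26 without replicate 1 (adjusted p = 5.27e-06). Cd80 was also lost without Ifnar1-/- LPS+zVAD replicate 1 (adjusted p = 0.0924). Fitted on the arrays compared alone, none of the 5 Nec-1 calls in WT or Ifnar1-/- cells held, with adjusted p of 0.113 for Cd86 in WT and, in Ifnar1-/- cells, 0.0918 for Cd86, 0.13 for Cd83, 0.261 for Cd274 and 0.269 for Cd80. With the block Nec-1 added to LPS+zVAD changed 7 members in Ifnar1-/- cells (35% of all genes), adding Cd40, H2-Aa (-0.48, adjusted p = 0.0326) and Cd74 (-0.30, adjusted p = 0.0456). Adding Nec-1 to IFNβ+zVAD changed no member in WT cells (0% of all genes, none at an unadjusted p under 0.05) and none in Ifnar1-/- cells (1.57% of all genes, 2 at an unadjusted p under 0.05), where Cd83 fell with the block by 2.75 (adjusted p = 0.00321, beside 4.16% of all genes).

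Between genotypes, where slide and genotype cannot be told apart, 1 member was called in untreated cells (8.72% of all genes), the Cd86 difference given above. With LPS 3 were called (28.4% of all genes): Cd86 at -4.38, or 20.9-fold lower in Ifnar1-/- cells (adjusted p = 3.82e-08), Cd83 at -2.26 (adjusted p = 0.0275) and Cd80 at 1.38 (adjusted p = 0.000628). Cd83 lost its call without any 1 of the 4 arrays (adjusted p 0.0664 to 0.14). With LPS+zVAD 2 were called (37.3% of all genes), Cd86 at -2.60 (adjusted p = 1.56e-05) and Cd80 at 1.77 (adjusted p = 3.73e-05). H2-Aa differed by 0.48 untreated (95% confidence interval -0.43 to 1.40) and by 0.92 with LPS (0.01 to 1.84, adjusted p = 0.126). Itgax was higher in the Ifnar1-/- arrays while the other dendritic cell markers overlapped between genotypes, and a link to H2-Aa was not tested. As each slide held 1 genotype, a slide block takes the spread between slides out of the error of differences between genotypes, and its calls are not given for them.

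Leaving out either of the 2 unlike arrays, or both, also gave calls in comparisons that do not hold them, at unchanged values, since all arrays share 1 estimate of the spread. Cd40 then passed for the difference in change with IFNβ+zVAD (-3.19, adjusted p = 0.191 with both arrays and 0.00693 without) and for Nec-1 added to IFNβ+zVAD in Ifnar1-/- cells (-2.94, adjusted p = 0.334 and 0.00556). Cd274 passed for the difference in change with LPS+zVAD (-1.86, adjusted p = 0.126 and 0.0376), for zVAD added to LPS in WT cells (1.29, adjusted p = 0.0873 and 0.024) and between genotypes with LPS+zVAD (-1.15, adjusted p = 0.121 and 0.0398).

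Of 15 tested genes for class II loading and processing, 2 rose and 7 fell in WT cells with LPS (41.2% of all genes were called in either direction), with a median change of -0.48 against -0.08 over all genes. March1, the ubiquitin ligase that takes class II and CD86 off the surface, rose by 2.65 (adjusted p = 0.00202), and H2-Ob, a chain of the H2-O inhibitor of peptide exchange, rose by 1.01 (adjusted p = 0.00587). Ifi30, the endosomal thiol reductase, changed by -1.30 (adjusted p = 0.000287), H2-DMa, a chain of the peptide exchange factor, by -0.77 (adjusted p = 0.00891), the protease gene Lgmn by -0.73 (adjusted p = 0.012) and March8, a relative of March1, by -0.65 (adjusted p = 0.0132). In Ifnar1-/- cells with LPS 3 of these genes rose and 5 fell (24.8% of all genes), and in WT cells with IFNβ 1 rose and 3 fell (35.3% of all genes).

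Of 17 regulators of class II transcription, 7 rose and 2 fell with LPS in WT cells (41.2% of all genes), with a median of 0.40. Socs1, which damps cytokine signalling, rose by 5.09 (adjusted p = 5.83e-05) and Nlrc5, the class I counterpart of Ciita, by 3.16 (adjusted p = 2.74e-07), followed by the acetyltransferase gene Kat2b at 1.60 (adjusted p = 0.000171) and Creb1 at 1.26 (adjusted p = 0.000396). The RFX subunit genes Rfxap and Rfxank changed by -1.67 (adjusted p = 0.00401) and -1.40 (adjusted p = 0.00644). Nlrc5 read 9.06 and 9.28 in untreated and 9.82 and 9.92 in LPS-treated Ifnar1-/- cells. With LPS in Ifnar1-/- cells 3 genes of this list rose and none fell (24.8% of all genes), and with IFNβ in WT cells 7 rose and 3 fell (35.3% of all genes). Of the interferon gamma receptor genes, Ifngr2 rose by 0.81 (adjusted p = 0.00319) and Ifngr1 changed by -1.26 (adjusted p = 0.0462) with LPS in WT cells (41.2% of all genes). Ifng itself did not pass the dim filter.

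Of 19 other costimulatory and coinhibitory ligands tested, 9 rose and 2 fell with LPS in WT cells (41.2% of all genes), with a median of 1.54. The TNF family ligands Tnfsf9 (5.84, adjusted p = 1.68e-05), Tnfsf4 (at least 44.2-fold) and Tnfsf15 (5.33, adjusted p = 9.55e-05) led, followed by Cd200 (4.12, adjusted p = 0.00137). Tnfsf4 was not well above background on either untreated array, so its fold is a lower bound. It is set against the dimmest probe well above background on each untreated array or its own signal where higher. Both LPS arrays were among the 18 of 32 that passed Tnfsf4 through the dim filter, so no p-value is given. Tnfsf4 is nonetheless 1 of the 9 ligands counted as risen. The inhibitory ligand VISTA, listed as 4632428N05Rik, changed by -2.92 (adjusted p = 0.0013) and Cd48 by -0.54 (adjusted p = 0.0203). In Ifnar1-/- cells 10 rose and 1 fell with LPS (24.8% of all genes), while with IFNβ none was called (0% of all genes). The comparisons with LPS and with IFNβ share their untreated arrays. Of 3 tested genes for T cell receptors of these ligands, Cd28 changed by -6.07 (adjusted p = 4.68e-05) and Havcr2 by -2.53 (adjusted p = 0.0156) with LPS in WT cells (41.2% of all genes were called). Ctla4, Pdcd1, Icos, Cd40lg, Btla and Tigit of that list did not pass the dim filter and were not tested. Lag3 was likewise not well above background on either untreated array, and it passed the dim filter on 16 of 32 arrays, the least allowed. With LPS Lag3 read 6.87 and 8.85 in WT cells, and both these arrays helped it through the filter. Its untreated level was not detected, so no fold or p-value is given. Among dendritic cell markers Zbtb46 rose by 3.76 (adjusted p = 8.33e-05) and Ccr7 by 2.54 (adjusted p = 0.0465) with LPS in WT cells (41.2% of all genes).

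Over the 16 group means, which share slides and treatments, the members fell into sets by their pattern. The Pearson correlation was 0.94 between Cd40 and Cd274, 0.91 between Cd86 and Cd83, -0.94 between Cd80 and Cd274, and -0.90 between Cd80 and Cd86. Among class II genes H2-Ab1 and H2-Eb1 correlated at 0.86, whereas Ciita correlated with the 4 class II genes at -0.15 to 0.22. The genes of the whole table most like Cd40 were Gbp5 (0.989), Psme2b (0.988) and Traf1 (0.987), and those most like Cd274 were Kpna4 (0.989), Kpna3 (0.982) and Daam1 (0.980). Cd86 was most like Gpbp1 (0.980), Cd83 most like Smox (0.960) and Cd80 most like Agbl3 (0.985). For the class II genes the highest values were lower, with Tgfb1 for H2-Aa (0.952), Liph for Cd74 (0.929), Mrgprf for H2-Eb1 (0.885), Slc4a7 for H2-Ab1 (0.876) and Fgfr2 for Ciita (0.886).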

How the data were processed

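Per the file headers, the arrays were 1-colour Agilent arrays read by Feature Extraction 11.5.1.1, which gives the background-subtracted intensity of each spot used here (processed signal). The authors also deposited a processed table of log2 values, used only as an alternative. The submitters' processing notes name limma. Probe positions are those of the file headers (mm9), and exon or UTR annotation was not used here. Here, outlier spots were left out, log2 intensity was quantile normalized over 55681 probes with R 4.3.3 and limma 3.58.1, probes well above background on 50% of the 32 arrays were kept (21496 of 33140 with a symbol), and the brightest probe stood for each of 16065 genes. A single limma fit of 16 group means (16 residual degrees of freedom) gave 33 comparisons, with Benjamini-Hochberg adjustment over all genes and a call at an adjusted p under 0.05. With 2 arrays a group, their number limits the precision. The fit was checked on simulated data whose arrays were drawn independently, without a slide effect, so the check does not bear on the spread between slides.

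The members and gene lists were chosen with earlier results of these data known. Named genes were the 10 members, the 3 genes most correlated with each, of which the text gives the first or all, and up to 4 called genes a direction from each list with LPS in WT cells. Same-numbered arrays of a genotype shared a slide and deviated together in 28 of 28 pairs of groups in each genotype (correlations 0.317 to 0.670 in WT, 0.168 to 0.577 in Ifnar1-/-), so the slide was also fitted as a replicate block. Each WT slide had its own scan day, and both Ifnar1-/- slides shared 1. Other alternatives were a random slide block, a 75th percentile shift, normexp background, no dim filter, the mean of a gene's probes, a trended prior, only the arrays compared, the authors' table and leaving out each array.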

Additional observations from a re-analysis of the deposited data

Results flagged for a closer look

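These results stood out because a member's change with treatment differed between Ifnar1-/- and WT cells in a limma test of that difference, with an adjusted p under 0.05. The values are the log2 change in Ifnar1-/- cells minus the log2 change in WT cells. With LPS these were Cd80 at 1.61 and Cd86 at -2.76. With IFNβ they were Cd40 at -5.09, Cd80 at 1.94, Cd86 at -4.39 and Cd274 at -4.95. With LPS+zVAD it was Cd80 at 2.0. With IFNβ+zVAD they were Cd80 at 2.81, Cd86 at -3.66 and Cd274 at -4.51. With LPS+zVAD+Nec-1 they were Cd80 at 2.83, Cd86 at -3.23, Cd274 at -4.37 and Cd83 at -3.10, and this group held the 2 unlike Ifnar1-/- arrays. With IFNβ+zVAD+Nec-1 they were Cd40 at -5.88, Cd80 at 2.38, Cd86 at -3.61, Cd274 at -5.19 and Cd83 at -3.45. The Cd274 value with IFNβ rests on 1 WT IFNβ array. All Cd80 values come from its bright probe. With the mean of a gene's probes in its place, the count of differences called was 15 instead of 19. No group was large enough to test single arrays as outliers.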

How the results depend on the processing

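Counts of members called, summed over the comparisons of a kind, were 32 against untreated WT cells, 7 against untreated Ifnar1-/- cells, 19 for differences in change between genotypes, 5 when zVAD was added, 5 when Nec-1 was added, 1 between LPS and IFNβ and 6 between genotypes. With the slide as a replicate block the first 6 paired counts were 47, 12, 26, 8, 11 and 3. Of all 330 single values, 41 gained a call with the block and none lost one. Those 41 include differences between genotypes, for which the block calls are not used here. A random slide block gave 3 between LPS and IFNβ. Fitting only the arrays compared gave 0 for Nec-1, 0 between LPS and IFNβ and 10 between genotypes, with fewer arrays to estimate the spread. That fit also ended the calls in WT cells for Cd83 under LPS+zVAD+Nec-1 (adjusted p = 0.0649), IFNβ (0.196), IFNβ+zVAD+Nec-1 (0.168) and IFNβ+zVAD (0.0942) and for Cd80 when zVAD was added to LPS (0.136), and the differences in change for Cd274 (0.0627) and Cd83 (0.0635) with LPS+zVAD+Nec-1 and for Cd83 with IFNβ+zVAD+Nec-1 (0.0512). The authors' table gave 22 against untreated WT cells, with 8 member values missing, and 6 against untreated Ifnar1-/- cells, with 15 missing. It gave 11 for differences in change, with 16 missing, 3 for zVAD, with 7 missing, and 4 for Nec-1, with 5 missing. Between LPS and IFNβ it gave 1, with 2 missing, and between genotypes 4, with 6 missing. Its only Ciita probe is empty on 23 of 32 arrays, so the Ciita changes could not be checked there. Leaving out 1 array gave 29 to 34, 6 to 9, 14 to 22, 3 to 5, 4 to 7, 1 to 1 and 5 to 6 in that order. In the authors' table the bright Cd80 probe is empty on 23 of 32 arrays, so the dim probe stands for the gene, and Cd80 turned to 0.0223 (WT LPS), 1.03 (WT IFNβ), and, as differences in change, -0.19 (LPS), -0.88 (IFNβ), -0.40 (LPS+zVAD) and -0.14 (IFNβ+zVAD+Nec-1). With the mean of both Cd80 probes the fall in WT was -1.12 with LPS and -0.28 with IFNβ, the latter not called. With the mean of a gene's probes 31 members were called against untreated WT and 6 against untreated Ifnar1-/- cells. Under that mean 15 differences in change, 4 zVAD and 4 Nec-1 values were called, and 8 single values lost a call. Cd80 and H2-Ab1 have a second probe, and only Cd80 had calls in the main fit. The 75th percentile shift turned H2-Ab1 with LPS+zVAD in WT cells to 0.74, called, where the reported value was -0.17, and the cause was not tested. Over all genes called with LPS in WT cells, 39.7% were higher as reported and 50.2% after the shift. The other alternatives left the direction of every called value as reported.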
